A study of Mus musculus with 11 samples.

Results

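The 10 genes described here are the core genes of the circadian clock and a well known output of it, Arntl, Clock, Per1, Per2, Per3, Cry1, Cry2, Nr1d1, Nr1d2 and Dbp, out of 52282 genes in the annotation used. They were taken by name, and all 10 of 10 passed the filter on low counts that left 26960 genes for testing. Their RNA was measured in 11 bulk libraries from the inguinal fat of mice, a white depot under the skin. The KO animals carried floxed Raptor with a Cre driven by the adiponectin promoter, which is active in adipocytes, so other cells of the depot kept the gene. The WT animals carried floxed Raptor without that Cre. Raptor (gene Rptor) is the subunit that defines the growth-regulating kinase complex mTORC1. All animals were C57BL6/J, aged 16 weeks, and all had eaten a high-fat diet for 8 weeks. Rosiglitazone, an agonist of the adipocyte nuclear receptor PPARG, was added to that diet at 30 mg per kg per day in 2 of the 4 groups.

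There were 3 KO libraries with rosiglitazone, 2 KO libraries on diet alone, 3 WT libraries with rosiglitazone and 3 WT libraries on diet alone. The study asked how mTORC1 and PPARG act together on the transcriptome of this depot. In the labels of the 6 WT libraries, title and treatment characteristic contradict each other, each giving the treatment that the other denies. The characteristic was followed, so every statement on a WT treatment holds under that label, while the contrast of genotypes averaged over treatments does not depend on it. Whether each library is a mouse of its own is not stated, and the spread behind the p-values may thus be partly technical. The hour of tissue collection is not given in the sources used here, and for genes of the clock a difference in hour between groups cannot be told apart from an effect of genotype or treatment. Values are therefore shown for every library.

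The clock is a feedback loop of transcription that runs in nearly every cell. The proteins of Arntl (BMAL1) and Clock bind E-box sequences together and switch on the Per and Cry genes, whose proteins return to block them. The same pair switches on Nr1d1 and Nr1d2, which encode the repressors REV-ERB alpha and beta, and these close another loop by silencing Arntl at response elements shared with the ROR activators. Dbp encodes a transcription factor that carries the rhythm to D-box sequences in other genes. Over a normal day in mouse tissues Arntl RNA therefore peaks when Nr1d1, Dbp and Per3 RNA are low. In adipose tissue the clock is known to time fat storage, lipolysis and the release of adipokines.

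Promoter sequences of 250 bases before to 50 bases after a gene's start, from RefSeq with build GRCm38.p6, were found for 9 of the 10 genes in 13 windows. They are shown for Arntl, Per3 and Nr1d1, the genes on which the results below turn. Per3 and, in its second window only, Arntl hold letter matches to response elements of the clock. Capitals mark matches on either strand to a D-box (TTATGTAA) or to the core of the element bound by ROR and REV-ERB proteins (TAGGTCA).
Arntl, the second of its 2 windows, chr7:113207261-113207560, plus strand: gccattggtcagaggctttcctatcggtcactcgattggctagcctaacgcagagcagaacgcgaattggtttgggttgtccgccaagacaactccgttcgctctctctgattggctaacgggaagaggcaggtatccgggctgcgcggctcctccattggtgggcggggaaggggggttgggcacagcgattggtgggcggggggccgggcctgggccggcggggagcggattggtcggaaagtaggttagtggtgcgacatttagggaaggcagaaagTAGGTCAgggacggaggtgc
Per3, chr4:151044616-151044915, minus strand: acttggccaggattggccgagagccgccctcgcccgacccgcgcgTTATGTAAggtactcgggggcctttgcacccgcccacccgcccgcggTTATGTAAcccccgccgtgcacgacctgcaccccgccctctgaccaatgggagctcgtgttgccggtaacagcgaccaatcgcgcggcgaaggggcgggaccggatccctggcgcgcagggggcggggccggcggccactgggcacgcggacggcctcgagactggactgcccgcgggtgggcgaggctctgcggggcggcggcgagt
Nr1d1, chr11:98775328-98775627, minus strand: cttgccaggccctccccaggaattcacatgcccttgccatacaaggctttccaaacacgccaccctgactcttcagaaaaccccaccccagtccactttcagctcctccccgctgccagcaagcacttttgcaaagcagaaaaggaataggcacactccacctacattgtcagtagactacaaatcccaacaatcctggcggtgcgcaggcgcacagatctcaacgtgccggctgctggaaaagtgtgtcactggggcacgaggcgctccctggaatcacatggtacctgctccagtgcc
Arntl held the ROR and REV-ERB core at position 31, counted from the start as 1, a sequence present in 2.61% of all 32851 promoter windows. Per3 held 2 D-boxes, and a D-box was present in 0.938% of windows. The E-box CACGTG, present in 7.15% of windows, was found in Per1 at position -166 of its first window and in Cry1 at position -60. The cyclic AMP response element TGACGTCA (1.79% of windows) was not found in the 13 windows. These matches describe letters within 300 bases, not bound sites.

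Libraries held from 13035346 to 17167452 estimated reads in KO with rosiglitazone, 18910679 and 20163464 in KO on diet, from 18437526 to 40925952 in WT with rosiglitazone and from 16088059 to 27160069 in WT on diet. Rptor stood between 56.5 and 91.7 CPM in the 5 KO libraries and between 73.9 and 126 CPM in the 6 WT libraries (log2 fold change -0.41 ± 0.11, adjusted p = 0.0403, averaged over treatments), where CPM are reads scaled to a common library size after TMM normalisation and ± marks a standard error. Markers of adipocytes were detected in every library, with Adipoq between 57.7 and 205 CPM in KO and between 453 and 1864 CPM in WT. Summed over 14 mature adipocyte markers, KO libraries held 2684 to 7588 CPM and WT libraries 10431 to 29958 CPM. Skeletal muscle markers took over 0.5% of reads in 3 libraries, KO with rosiglitazone replicate 2 (1.62%), WT with rosiglitazone replicate 3 (0.6%) and WT on diet replicate 2 (0.653%). The 8 B-cell markers summed to 14 to 23.1 CPM in KO on diet replicate 1, WT with rosiglitazone replicate 2 and WT on diet replicate 1, and to at least 132 CPM in each of the other libraries.

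With rosiglitazone, KO fat held more Arntl RNA and less Per2, Per3, Cry2 and Nr1d1 RNA than WT fat. Arntl was 2.2 times as high, and Per3 and Nr1d1 stood at 0.363 and 0.338 of the WT level. The test called 5 of the 10 clock genes, 1 higher and 4 lower, at an adjusted p under 0.05, where 15% of all 26960 genes tested were called in this contrast, 5.47% higher and 9.5% lower. The median log2 fold change was -0.57 over the clock genes and 0.05 over all genes tested. Libraries of both genotypes did not overlap for 1 higher and 7 lower clock genes, against 23.5% and 24.7% of all genes. In bulk RNA fewer cells of a type and less RNA per cell cannot be told apart. In this contrast 14 of 14 mature adipocyte markers were lower and 8 of 10 macrophage markers were called higher in KO. With the WT treatments taken from the titles 1 clock gene was called, Nr1d1 (-1.47 ± 0.26, adjusted p = 0.0194), and without the 3 libraries rich in muscle reads 0 were called.

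**Figure D1:**
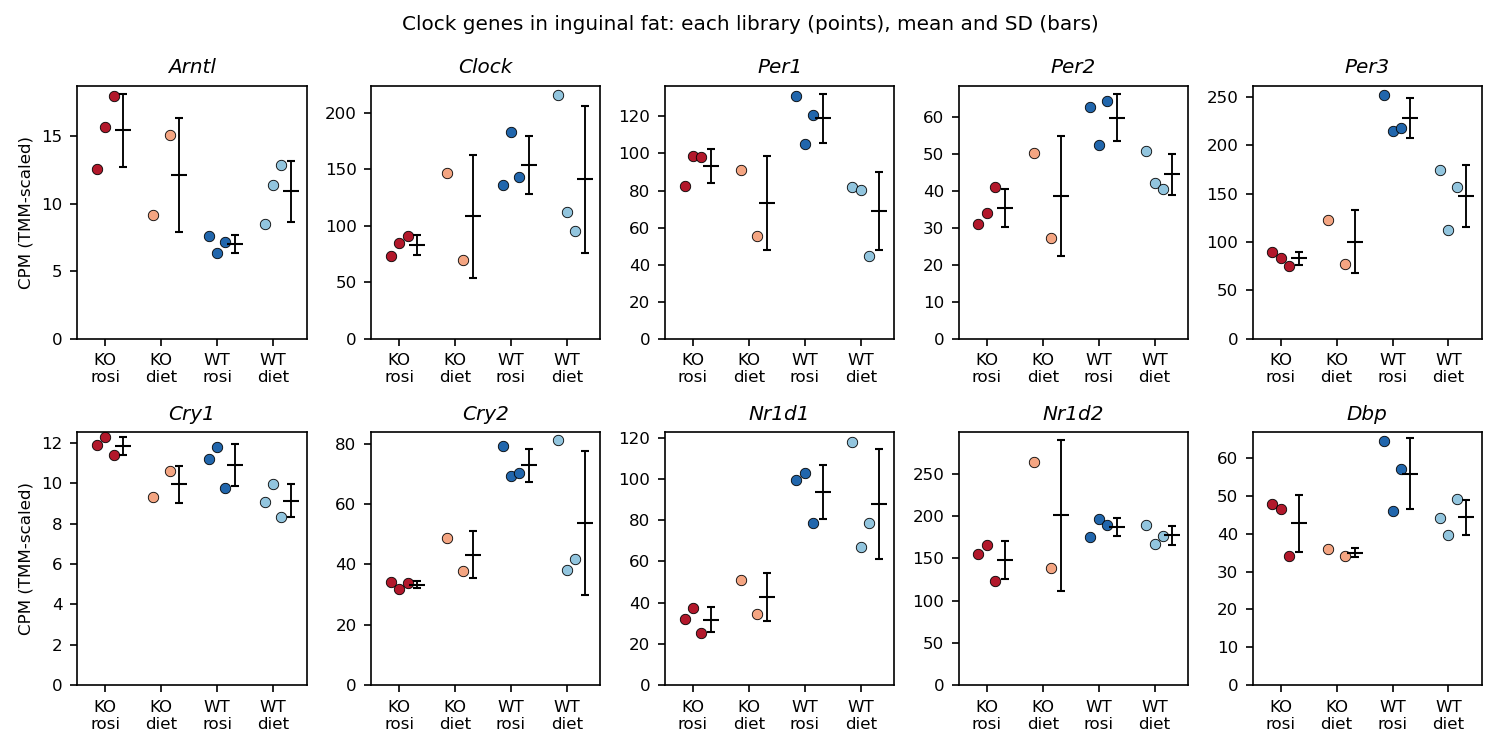
Level of each clock gene in CPM (vertical axis, from 0) in the 11 libraries by group, with points for libraries and bars for the mean and SD. With rosiglitazone the KO libraries lie above the WT libraries for Arntl (12.6 to 18 against 6.31 to 7.6 CPM) and below them for Per3 (75.4 to 89.5 against 215 to 252 CPM) and Nr1d1 (25.5 to 37.6 against 78.6 to 103 CPM).

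Of the activators, Arntl (ENSMUSG00000055116.8, GRCm38 chr7:113207465-113314126, plus strand) measured 12.6, 15.7 and 18 CPM in KO with rosiglitazone, against 7.6, 6.31 and 7.17 CPM in WT with rosiglitazone. On diet it measured 9.16 and 15.1 CPM in KO and 8.46, 11.4 and 12.9 CPM in WT. Every KO library with rosiglitazone thus exceeded every WT library with rosiglitazone, whereas on diet the genotypes overlapped. The rise in KO with rosiglitazone was 1.14 ± 0.24 on the log2 scale (adjusted p = 0.0136). The call was lost without KO with rosiglitazone replicate 3 (adjusted p = 0.06) or WT with rosiglitazone replicate 2 (adjusted p = 0.065). TPM divides reads by transcript length and, unlike CPM here, was not TMM-scaled between libraries. On the scale of log2(TPM + 1), limma gave 0.46 ± 0.37 (adjusted p = 0.472), beside a median of -0.31 over all genes. The 11 libraries together held 2472 estimated Arntl reads, so counting error is larger here than for the other clock genes apart from Cry1.

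Clock (ENSMUSG00000029238.11, chr5:76209868-76304792, minus strand), the partner of Arntl, measured 73.4, 84.9 and 90.6 CPM in KO with rosiglitazone and 147 and 69.9 CPM in KO on diet. It measured 136, 183 and 143 CPM in WT with rosiglitazone and 216, 112 and 95.4 CPM in WT on diet. The libraries did not overlap with rosiglitazone, yet the fold change of -0.89 ± 0.34 (log2) did not pass the edgeR test (adjusted p = 0.108). It was called by limma-voom (-0.79 ± 0.17, adjusted p = 0.00489), by edgeR on the compared groups alone (-0.87 ± 0.14, adjusted p = 0.00149) and without WT on diet replicate 1 (-0.89 ± 0.26, adjusted p = 0.0355). Gm43658 and the pseudogene Ube2n-ps1 overlap Clock on the same strand, and their reads came to 12.8% and 4.5% of its own. The 3 libraries highest in Clock, at 147, 183 and 216 CPM, were the 3 with the fewest B-cell marker reads. With the B-cell markers as a covariate, Clock fell by 0.46 ± 0.11 on the log2 scale in KO averaged over treatments (adjusted p = 0.0094), while with adipocyte markers as the covariate it was called in the opposite direction, at 1.20 ± 0.22 (adjusted p = 0.00689). With neither covariate Clock stood at -0.64 ± 0.26 (adjusted p = 0.136). Among these fits the sign turned only with adipocyte markers. The ranges of those markers do not overlap between genotypes, so that fit cannot tell marker level and genotype apart.

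Among the Per genes, Per3 (ENSMUSG00000028957.12, chr4:151003652-151044665, minus strand) had the largest fold change. It measured 89.5, 83.7 and 75.4 CPM in KO with rosiglitazone and 252, 215 and 218 CPM in WT with rosiglitazone, a log2 change of -1.46 ± 0.23 (adjusted p = 0.00394). On diet it measured 123 and 77.4 CPM in KO and 174, 112 and 157 CPM in WT, and the groups overlapped. Per3 lies within Camta1 on the same strand, whose reads came to 10.7% of its own. Leaving out each library in turn kept the call with rosiglitazone in all 11 fits (adjusted p = 0.00143 to 0.0275).

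Per2 (ENSMUSG00000055866.9, chr1:91415982-91459324, minus strand) measured 31.1, 33.9 and 41.1 CPM in KO with rosiglitazone, against 62.6, 52.4 and 64.2 CPM in WT with rosiglitazone. Its fold change of -0.75 ± 0.23 (log2) passed the threshold narrowly (adjusted p = 0.0498) and no longer did so in 8 of the 11 fits that left out a library (adjusted p up to 0.158). Per1 (ENSMUSG00000020893.17, chr11:69095217-69109960, plus strand), the member that also answers acutely to hormones and stress, measured 82.6, 98.9 and 98.3 CPM in KO with rosiglitazone and 131, 105 and 121 CPM in WT with rosiglitazone. It did not pass the test (log2 fold change -0.35 ± 0.26, adjusted p = 0.378).

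The Cry genes encode the partners of the Per proteins in the repressor complex. Cry2 (ENSMUSG00000068742.11, chr2:92403646-92434043, minus strand) measured 34.1, 31.9 and 33.7 CPM in KO with rosiglitazone, against 79.2, 69.2 and 70.2 CPM in WT with rosiglitazone. It changed by -1.13 (log2, SE 0.26, adjusted p = 0.0201), a call lost in 6 of the 11 fits that left out a library (adjusted p up to 0.0719). Cry1 (ENSMUSG00000020038.10, chr10:85131700-85185064, minus strand) measured 11.9, 12.3 and 11.4 CPM in KO with rosiglitazone and 11.2, 11.8 and 9.77 CPM in WT with rosiglitazone. Its libraries overlapped, and its fold change was 0.12 ± 0.15 (log2, adjusted p = 0.602), the smallest among the clock genes in this contrast.

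Of the REV-ERB genes, Nr1d1 (ENSMUSG00000020889.11, chr11:98767932-98775333, minus strand) measured 32, 37.6 and 25.5 CPM in KO with rosiglitazone, against 99.5, 103 and 78.6 CPM in WT with rosiglitazone. It changed by -1.56 (log2, SE 0.26, adjusted p = 0.00512), and the call held in all 11 fits that left out a library (adjusted p = 0.00117 to 0.0313). On diet it measured 51.1 and 34.7 CPM in KO and 118, 67 and 78.6 CPM in WT, again without overlap. Its paralog Nr1d2 (ENSMUSG00000021775.11, chr14:18204054-18239127, minus strand) measured 155, 166 and 123 CPM in KO with rosiglitazone and 175, 196 and 190 CPM in WT with rosiglitazone (log2 fold change -0.34 ± 0.23, adjusted p = 0.35). Nr1d2 reached its highest value of the series, 264 CPM, in KO on diet replicate 1, against 138 CPM in replicate 2 of that group. Nr1d1 shares 1075 bases with Thra on the opposite strand, and Thra held 83.5% as many reads, so reads in the shared bases cannot be assigned with certainty where strand is not recorded.

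Dbp (ENSMUSG00000059824.12, chr7:45705088-45710203, plus strand) measured 47.9, 46.5 and 34.2 CPM in KO with rosiglitazone and 35.9 and 34.2 CPM in KO on diet. It measured 64.6, 46 and 57.1 CPM in WT with rosiglitazone and 44.1, 39.7 and 49.2 CPM in WT on diet. Dbp did not pass the edgeR test in any of the 7 contrasts, and the fold change between genotypes with rosiglitazone was -0.38 ± 0.18 (log2, adjusted p = 0.174). In that contrast limma-voom with quality weights called it lower, at -0.50 ± 0.15 (adjusted p = 0.0282). Dbp shares 737 bases with Sphk2 on the opposite strand, to which the same limit applies.

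Averaged over both treatments, the genotype contrast gave Arntl higher and Per3, Cry2 and Nr1d1 lower in KO, whichever label is used for the WT treatments. The test called 4 of the 10 clock genes, where 12.8% of all genes tested were called, 4.57% higher and 8.2% lower, and the median log2 fold change was -0.42 over the clock genes and 0.05 over all genes. Nr1d1 averaged 36.2 ± 9.48 CPM in KO (SD, n = 5) and 90.8 ± 19.1 CPM in WT (SD, n = 6), and the highest KO library, at 51.1 CPM, lay below the lowest WT library, at 67 CPM. Nr1d1 fell, with a log2 change of -1.30 ± 0.19 (adjusted p = 0.00379). Per3 averaged 89.7 ± 19.2 CPM in KO (SD, n = 5) and 188 ± 50.6 CPM in WT (SD, n = 6), a log2 change of -1.01 ± 0.17 (adjusted p = 0.00588). Its genotypes overlapped through KO on diet replicate 1, at 123 CPM, and WT on diet replicate 2, at 112 CPM.

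Arntl, an activator, and Cry2, a repressor, passed the same contrast closer to the threshold. Arntl averaged 14.1 ± 3.39 CPM in KO (SD, n = 5) and 8.99 ± 2.62 CPM in WT (SD, n = 6), a log2 fold change of 0.64 ± 0.18 (adjusted p = 0.0403). Cry2 averaged 37.2 ± 6.78 CPM in KO (SD, n = 5) and 63.3 ± 18.7 CPM in WT (SD, n = 6), a log2 fold change of -0.72 ± 0.20 (adjusted p = 0.04). The Arntl call was lost in 9 and the Cry2 call in 7 of the 11 fits that left out a library, with adjusted p up to 0.172 for Arntl and 0.136 for Cry2. Nr1d1 (adjusted p = 0.00242 to 0.0143) and Per3 (adjusted p = 0.00419 to 0.0216) were called in all 11. Without the 3 libraries rich in muscle reads the count fell to 0 with rosiglitazone and to 1 averaged over treatments, which was Nr1d1. That smaller fit gave Nr1d1 at -1.76 ± 0.30 (log2, adjusted p = 0.0567) and Per3 at -1.44 ± 0.30 (adjusted p = 0.0805) with rosiglitazone, and 208 of 26528 genes were called in all.

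**Figure D2:**
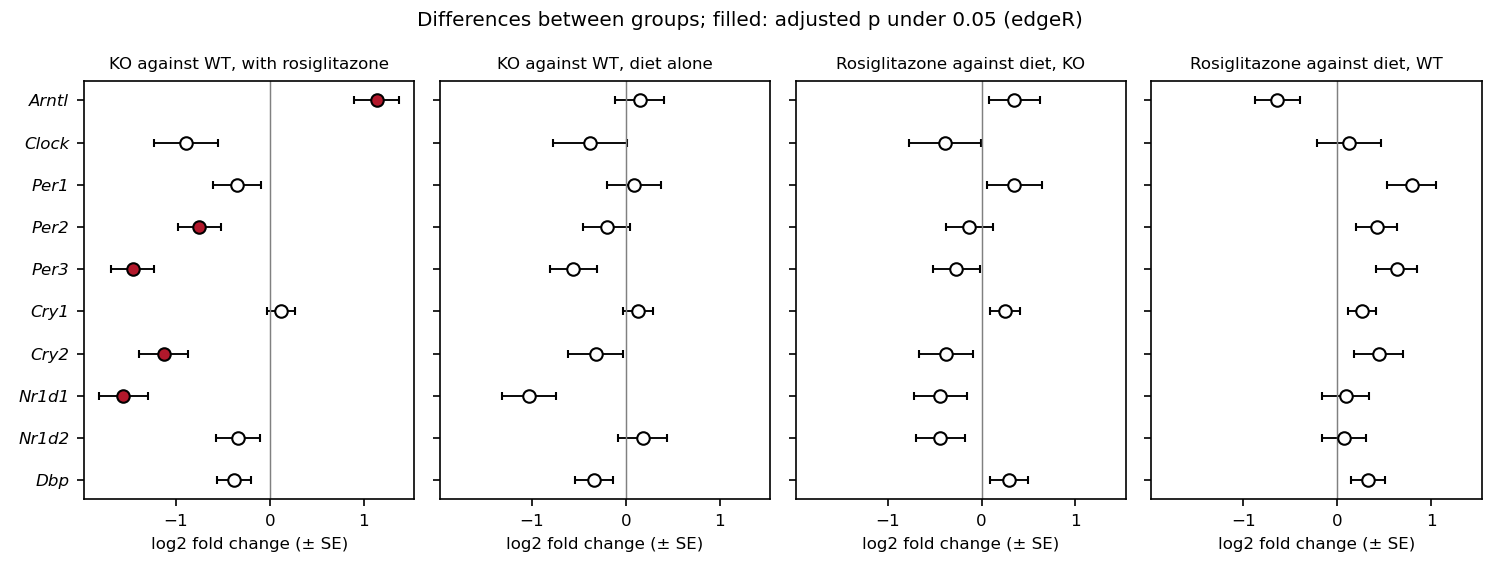
Log2 fold changes (horizontal axis) of the 10 clock genes in the 4 contrasts of the design, with bars for the standard error and filled points for an adjusted p under 0.05. The filled points are Arntl at 1.14 and Per2, Per3, Cry2 and Nr1d1 at -0.75, -1.46, -1.13 and -1.56, all in the contrast of genotypes with rosiglitazone.

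On diet alone, the test called 0 of the 10 clock genes between genotypes, where 0.137% of all genes were called, 0.026% higher and 0.111% lower. Without adjustment, 0 higher and 2 lower had p under 0.05, Per3 and Nr1d1 (4.57% and 5.92% of all genes), while DESeq2 called 1, Nr1d1, and limma-voom 0. Nr1d1 had a log2 fold change of -1.03 ± 0.29 (edgeR adjusted p = 0.226) and Per3 of -0.56 ± 0.25 (adjusted p = 0.473). Arntl, at 0.15 ± 0.26 (adjusted p = 0.911), Clock, at -0.38 ± 0.39, and Cry2, at -0.32 ± 0.29, had standard errors as large as or close to their values. Nr1d1 and Dbp were lower in every KO library than in any WT library on diet, as were 10.3% of all genes. The pair of KO libraries on diet was uneven, since replicate 1 held 147 CPM of Clock, 50.1 CPM of Per2 and 264 CPM of Nr1d2, and replicate 2 held 69.9, 27.1 and 138 CPM of the same genes.

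Rosiglitazone in WT fat gave 0 called clock genes, where 2.14% of all genes were called, 1.55% higher and 0.593% lower. Per1, which hormones can induce, measured 131, 105 and 121 CPM with rosiglitazone and 81.8, 80.3 and 44.8 CPM on diet, without overlap (log2 fold change 0.79 ± 0.26, adjusted p = 0.159). Per3 stood at 0.63 ± 0.22 (adjusted p = 0.181) and Arntl at -0.64 ± 0.24 (adjusted p = 0.203). Libraries did not overlap for 3 higher clock genes, Per1, Per2 and Per3, and 1 lower, Arntl, beside 13.4% and 10.4% of all genes. Per1 and Per3 higher and Arntl lower had an unadjusted p under 0.05, as had 9.93% and 7.5% of all genes. DESeq2 called 0, whereas limma-voom with quality weights called 5, Per1, Per2, Per3 and Cry2 higher and Arntl lower, in a fit that called 7325 genes against 578 with edgeR. With the WT treatments taken from the titles, the signs of these contrasts turn.

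Rosiglitazone in KO fat gave 0 called clock genes by edgeR, DESeq2 or limma-voom and 0 at an unadjusted p under 0.05. Of all genes 0.0148% were called, 0.0111% higher and 0.00371% lower, and 4.09% and 4.27% had an unadjusted p under 0.05. Fold changes lay between -0.44 for Nr1d1 and Nr1d2 and 0.35 for Arntl and Per1 (log2, SE up to 0.38). Averaged over genotypes, rosiglitazone also called 0 clock genes, where 0.571% of all genes were called, 0.423% higher and 0.148% lower, and DESeq2 and limma-voom called 0. Per1, Cry1 and Dbp were higher at an unadjusted p under 0.05 and 0 were lower, beside 8.07% and 6.51% of all genes. Per1 came closest at 0.57 ± 0.20 (log2, adjusted p = 0.215).

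Whether the genotypes differ in their response to rosiglitazone was tested by the interaction, which called 0 clock genes, where 0.104% of all genes were called, 0.0853% higher and 0.0185% lower, and DESeq2 and limma-voom called 0. At an unadjusted p under 0.05 (4.9% of all genes higher and 5.64% lower) it gave 1 higher, Arntl, at 0.98 ± 0.36 (log2, adjusted p = 0.384), and 1 lower, Per3, at -0.90 ± 0.33 (adjusted p = 0.388). Nr1d1 stood at -0.53 ± 0.38 (adjusted p = 0.657). The fold changes between genotypes with rosiglitazone were therefore not shown to differ from the fold changes between genotypes on diet. Without WT on diet replicate 1 the interaction called 1 clock gene, Cry2, at -1.24 ± 0.21 (adjusted p = 0.0484).

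**Figure D3:**
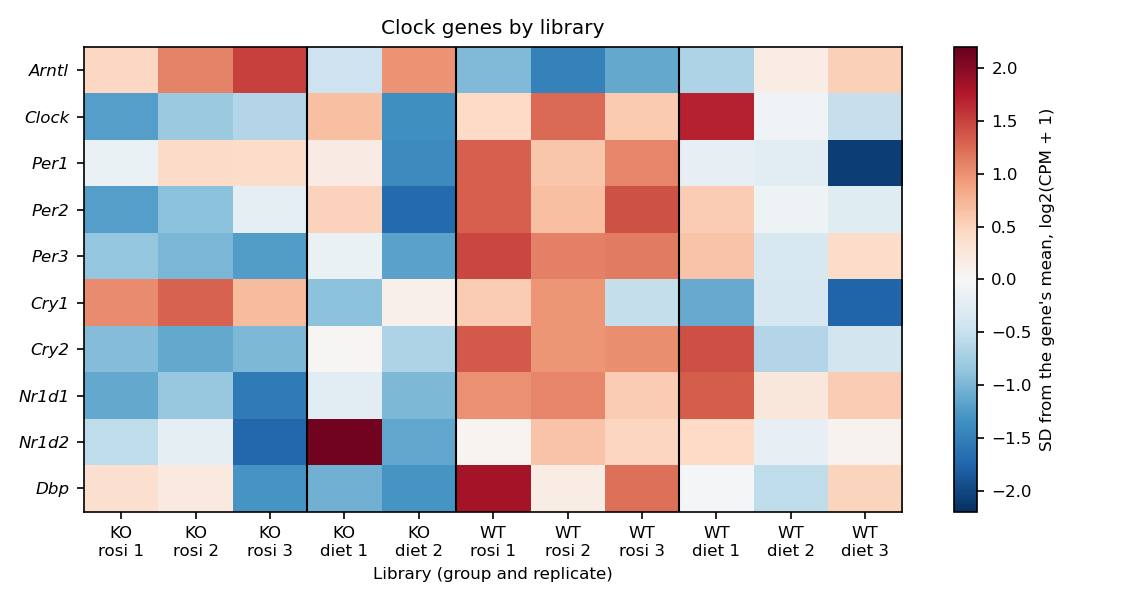
Each clock gene (rows) in each library (columns), coloured by its distance from the gene's mean over the 11 libraries in SD of log2(CPM + 1), red above and blue below. Arntl is red in the 3 KO libraries with rosiglitazone and blue in the 3 WT libraries with rosiglitazone, and Clock, Per2, Per3, Cry2 and Nr1d1 show the opposite colours in those 6 libraries.

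Across the 11 libraries Arntl ran opposite to most other clock genes. Pearson's r of log2(CPM + 1) was -0.90 with Per3 (Spearman's rho -0.90, adjusted permutation p = 0.00193 and 0.00378) and -0.90 with Cry2 (rho -0.85, adjusted permutation p = 0.00193 and 0.00648). It was -0.84 with Clock (rho -0.79), -0.83 with Nr1d1 (rho -0.76), -0.81 with Per2 (rho -0.84) and -0.69 with Nr1d2 (rho -0.79), all with adjusted permutation p of at most 0.0204 over the 9 pairs. The pairs with Per1 (r -0.49, adjusted permutation p = 0.149), Dbp (r -0.55, adjusted permutation p = 0.101) and Cry1 (r 0.19, adjusted permutation p = 0.565) did not pass. The permutation shuffled libraries across groups, so the group differences described above enter these p-values. Clock itself, which Arntl's protein binds as a partner, was among the genes that ran opposite to it. Correlations this strong were not particular to clock genes. Among genes in no clock list, r with Arntl reached -0.988 for Ss18l2 and 0.976 for Ulbp1. What share of all genes would pass was not tested.

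Without KO with rosiglitazone replicate 3 and WT with rosiglitazone replicate 2, the libraries farthest from the median of Arntl, r was -0.87 for Per3, -0.91 for Cry2, -0.83 for Clock, -0.74 for Nr1d1, -0.94 for Per2 and -0.57 for Nr1d2. For deviations from the group means 3 pairs passed, Clock at r -0.77 (adjusted permutation p = 0.0253), Nr1d1 at -0.74 (0.0354) and Nr1d2 at -0.79 (0.016). By Spearman's rho only Nr1d2 passed, at -0.85 (adjusted permutation p = 0.0133), with Clock at -0.73 (0.0633) and Nr1d1 at -0.69 (0.0658). Without KO on diet replicate 1 and WT on diet replicate 1, r of the deviations was -0.51 for Clock, -0.53 for Nr1d1 and -0.73 for Nr1d2. The permutations of deviations shuffled all 11 as exchangeable. Deviations sum to 0 within each group, and those of the 2 KO libraries on diet mirror each other. Their p-values are thus likely too small. In log2(TPM + 1), without TMM scaling between libraries, 0 of the 9 pairs passed and r lay between -0.13 for Per3 and 0.49 for Cry1. In TPM all 10 clock genes had their lowest value in KO with rosiglitazone replicate 1, from 1.78 for Cry1 to 22.5 for Nr1d2. Without that library and WT with rosiglitazone replicate 2, r in TPM was -0.52 for Per3 and -0.48 for Cry2.

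Levels of different genes were compared in TPM. Nr1d2 was the most abundant, with 31.8 ± 8.1 TPM in KO with rosiglitazone (SD, n = 3), 80.2 ± 35.9 in KO on diet (SD, n = 2), 57.4 ± 8.93 in WT with rosiglitazone (SD, n = 3) and 64.2 ± 5.56 in WT on diet (SD, n = 3). It exceeded the next gene, Per3, in 10 of 11 libraries. Per3, Dbp and Nr1d1 followed at means of 32.6, 30.7 and 29.9 TPM over all libraries, and their order changed from library to library. Per1, Clock and Cry2 had means of 23.9, 19.8 and 18.8 TPM. Cry2 exceeded Per2 (mean 8.44 TPM) and Per2 exceeded Cry1 (4.57 TPM) in 11 of 11 libraries each. Cry1 and Arntl (4.11 TPM) were the least abundant, and Cry1 exceeded Arntl in only 5 of 11 libraries, so their order is not settled. Nr1d1 had rank 6 in KO with rosiglitazone, at 6.59, 11.3 and 10.4 TPM, and rank 3 in WT with rosiglitazone, at 50.2, 41.4 and 29.3 TPM.

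Ratios within a library do not depend on the scaling between libraries, and are given as descriptions. The log2 ratio of Arntl to Dbp in TPM was -2.79, -2.34 and -1.86 in KO with rosiglitazone and -2.87 and -1.89 in KO on diet. It was -4.00, -3.87 and -3.83 in WT with rosiglitazone and -3.43, -2.72 and -2.86 in WT on diet. With rosiglitazone the KO libraries all had the higher ratio, and on diet the genotypes overlapped. The ratio of Nr1d1 to Nr1d2, chosen after the values were seen, lay between -1.81 and -1.55 in the 5 KO libraries and between -0.91 and -0.23 in the 6 WT libraries, without overlap on either treatment. The ratio of Arntl to Per3, chosen in the same way, lay between -2.40 and -1.38 in KO with rosiglitazone and between -4.41 and -4.11 in WT with rosiglitazone.

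**Figure D4:**
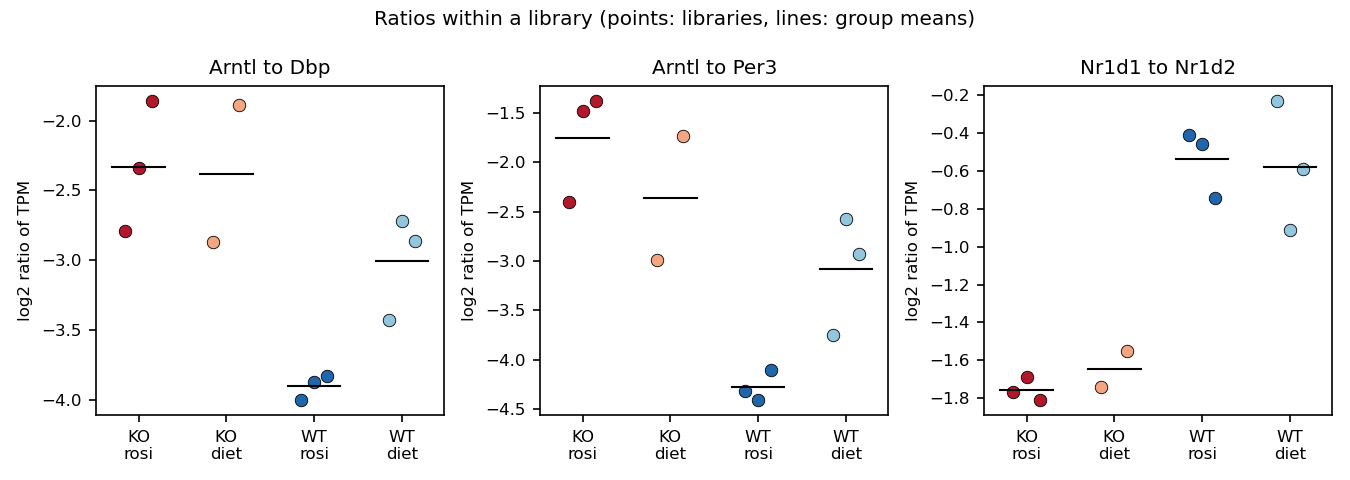
Log2 ratios of TPM between pairs of clock genes within each library (points) with group means (lines), by group. Nr1d1 to Nr1d2 lies from -1.81 to -1.55 in KO libraries and from -0.91 to -0.23 in WT libraries, while Arntl to Dbp and Arntl to Per3 separate the genotypes with rosiglitazone and overlap on diet.

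The depot is a mixture of cells, and its marker levels moved with genotype. With rosiglitazone the 14 mature adipocyte markers had sums of 4342 to 5008 CPM in KO and 26662 to 29958 CPM in WT. The 10 macrophage markers had sums of 2472 to 3067 CPM in KO and 626 to 780 CPM in WT. Of 8 endothelial markers 4 were called lower in KO, beside 9.5% of all genes. The others, Pecam1, Tek, Egfl7 and Emcn, were lower without passing (log2 fold change -0.58, -0.55, -0.66 and -0.77). None of the markers in these 3 lists was at 0 in every library. Within the diet groups, the library with most adipocyte marker RNA in each genotype (7588 CPM in KO replicate 1 and 26502 CPM in WT replicate 1) also had the highest Clock, Cry2 and Nr1d1 and the lowest Arntl of its group. Dbp was not highest there in WT. These libraries also had the lowest B-cell marker sums of their groups, 17.9 CPM in KO and 23.1 CPM in WT. Adipocyte and B-cell content thus cannot be told apart in them, and the share of all genes in this order was not counted. WT on diet replicate 1 measured 118 CPM of Nr1d1 and 8.46 CPM of Arntl, close to the WT libraries with rosiglitazone.

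**Figure D5:**
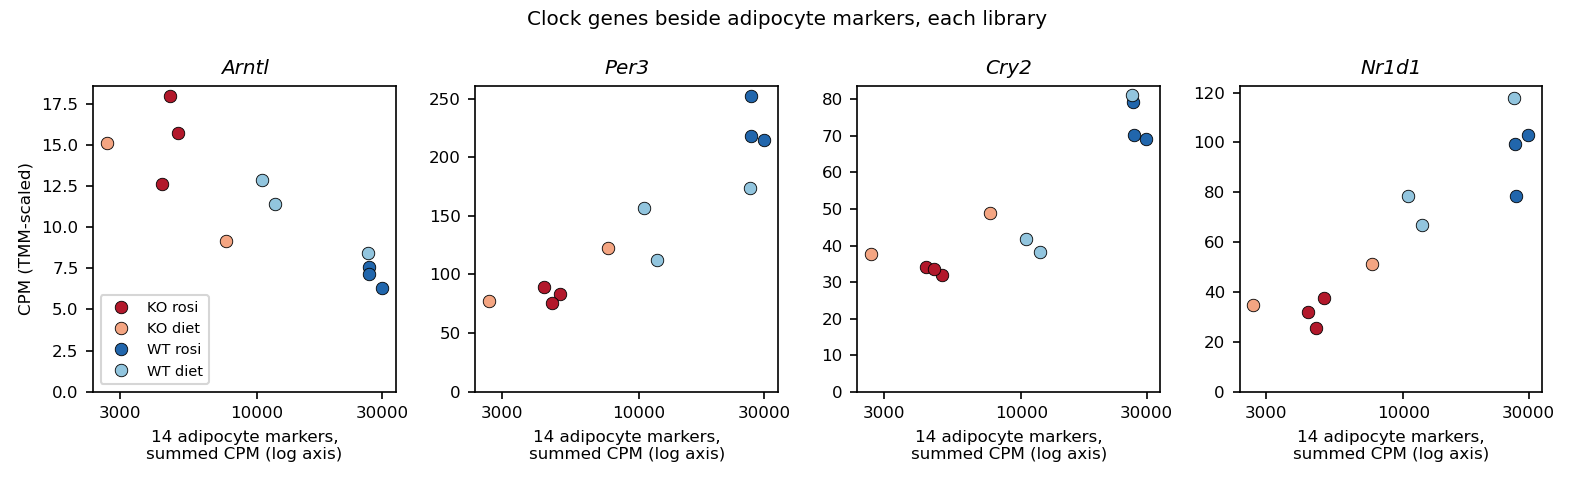
Level of Arntl, Per3, Cry2 and Nr1d1 in CPM (vertical axis) beside the summed CPM of 14 mature adipocyte markers (horizontal axis, log scale) in each library. The 4 libraries with sums from 26502 to 29958 CPM, the 3 WT libraries with rosiglitazone and WT on diet replicate 1, have the lowest Arntl and the highest Per3 and Cry2 and, with WT on diet replicate 3 level with 1 of them at 78.6 CPM, the highest Nr1d1. The 5 KO libraries lie at the low end of the marker axis.

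With the adipocyte marker level as a covariate, 0 of the 5 calls between genotypes with rosiglitazone remained, and marker level and genotype cannot be told apart here, since their ranges do not overlap between genotypes. The fit gave Nr1d1 -0.25 ± 0.40 (log2, adjusted p = 0.754), Per3 -0.56 ± 0.39 (adjusted p = 0.419) and Arntl -0.16 ± 0.41 (adjusted p = 0.856). Clock was then called higher in KO, at 1.44 ± 0.27 (adjusted p = 0.0104). A B-cell marker covariate instead kept 4 of the 5 calls, with Nr1d1 at -1.28 ± 0.18 and Arntl at 0.83 ± 0.18 (adjusted p = 0.00091 and 0.00988).

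Salmon divides a gene's reads among its transcripts, and the share of TPM in protein-coding ones ranged widely among the clock genes. It averaged 93.7% for Per2, 80.8% for Nr1d1, 77.4% for Per1, 77.3% for Cry1 and 76.1% for Dbp over the 11 libraries. It was 68.2% for Cry2, 62.7% for Clock, 59% for Nr1d2, 55.2% for Arntl and 35.5% for Per3, whose other 4 transcripts are annotated as retained intron, processed transcript or nonsense-mediated decay. In Clock the coding share was 55.7 ± 7.06% in KO (SD, n = 5) and 68.5 ± 8.36% in WT (SD, n = 6), and in Per3 30.1 ± 10.6% in KO and 40.1 ± 4.39% in WT. Both ranges overlapped, at 47.5% to 65.9% in KO and 54.8% to 77.7% in WT for Clock, and no test was made.

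Beyond the 10 genes, 11 further transcription factors of the loops gave 1 higher and 2 lower in KO with rosiglitazone against WT with rosiglitazone, where 5.47% of all genes were called higher and 9.5% lower. Npas2, which can stand in for Clock beside Arntl's protein, measured 1.81, 1.58 and 1.68 CPM in KO and 0.355, 0.436 and 0.127 CPM in WT (log2 fold change 2.38 ± 0.66, adjusted p = 0.0383), both low levels. Tef, a D-box factor related to Dbp, measured 157, 190 and 139 CPM in KO and 350, 347 and 360 CPM in WT, a log2 change of -1.12 ± 0.21 (adjusted p = 0.00793). Rora, an activator of Arntl, fell by 1.21 ± 0.36 on the log2 scale (adjusted p = 0.0489). Averaged over treatments Tef (-0.73 ± 0.16, adjusted p = 0.0157) and Hlf (-0.58 ± 0.15, adjusted p = 0.0344), the other D-box factor of the family, were lower. Rorb was higher in that contrast (1.05 ± 0.28, adjusted p = 0.0349), where 8.2% of all genes were called lower and 4.57% higher. Rorb measured 16.6 and 7.79 CPM in KO on diet and 3.43, 2.26 and 4.48 CPM in WT on diet, whereas with rosiglitazone the genotypes overlapped, at 3.36 to 4.97 CPM in KO and 2.17 to 4.36 CPM in WT.

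Of 14 output genes, 6 of which are also in the list of transcription factors, 0 were higher and 3 lower in KO with rosiglitazone, beside 9.5% of all genes called lower. They were Tef, Por, which encodes the electron donor of microsomal P450 enzymes (-1.79 ± 0.31, adjusted p = 0.00657), and Nampt, the limiting enzyme of NAD salvage (-1.02 ± 0.30, adjusted p = 0.0457). The median over the outputs was -0.36 (log2), against 0.05 over all genes. Of 10 genes listed as acting on or with clock proteins, Timeless was higher (0.87 ± 0.24, adjusted p = 0.0362) and the kinase gene Gsk3b lower (-0.87 ± 0.24, adjusted p = 0.0399). Of all genes 5.47% were called higher and 9.5% lower, so single calls among 10 genes are near those shares. Timeless and Gsk3b kept those calls averaged over treatments, at 0.63 ± 0.18 (adjusted p = 0.042) and -0.71 ± 0.18 (adjusted p = 0.0329). In that contrast 4.57% of all genes were called higher and 8.2% lower.

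Glucocorticoids and immediate-early stimuli are known to induce Per1, and lists of their target genes were read beside it. Of 10 immediate-early genes 3 were higher and 0 lower in KO with rosiglitazone, Atf3 (3.87 ± 0.49, adjusted p = 0.00173), Egr2 (2.70 ± 0.30, adjusted p = 0.00101) and Junb (1.32 ± 0.17, adjusted p = 0.00197), beside 5.47% of all genes called higher. The median was 1.10 over the list and 0.05 over all genes. Of 10 glucocorticoid-responsive genes, 0 were higher and 1 lower, a share close to the 9.5% of all genes called lower, Zbtb16 at -1.36 ± 0.28 (adjusted p = 0.0129). Zbtb16 was also higher with rosiglitazone in WT, at 1.29 ± 0.28 (adjusted p = 0.0494), beside 1.55% of all genes. Errfi1, a feedback inhibitor of EGF receptor signalling, was higher in KO averaged over treatments, at 0.95 ± 0.25 (adjusted p = 0.0373), beside 4.57% of all genes. In KO on diet against WT on diet 0 genes of these 5 lists were called by edgeR, and the smallest p were those of Rorb (1.85 ± 0.40, adjusted p = 0.144), Errfi1 (1.35 ± 0.37, adjusted p = 0.22) and Por (-0.98 ± 0.35, adjusted p = 0.346).

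The genes whose log2(CPM + 1) was most like that of Arntl over the 11 libraries, among 13917 protein-coding genes in no clock list, were Ulbp1 (r 0.976), Cdt1 (0.974) and Dnmt1 (0.973). The most opposite were Ss18l2 (-0.988), Peli3 (-0.977) and Thra (-0.976), the last of which is the gene that overlaps Nr1d1. Thra averaged 37.5 CPM in KO with rosiglitazone, 45.7 in KO on diet, 81.6 in WT with rosiglitazone and 57.5 in WT on diet. For Dbp the most alike were Lyrm2 (0.866), Tmem203 (0.857) and Fbxl15 (0.849), and the most opposite Ccdc153 (-0.878), Rnf111 (-0.864) and Wdr44 (-0.859). These are the extremes of many correlations over few libraries and are given as descriptions.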

How the data were processed

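Per the labels' protocols, Trizol was used for RNA extraction and the Nextera XT kit for the libraries, with no strand named. The submitters' processing notes list Salmon, edgeR, mm10 and GRCm38, and the sources used here give neither versions nor an annotation release. Each deposited table gives 1 library's estimated counts and TPM by transcript, per the file headers. TPM divides by effective length and gives every library the same total, so abundant short RNAs shift all other values.

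By identifier without version, 131892 of 132288 transcripts (99.7%) were found in GENCODE M21 (GRCm38). The other 396, with 0.0985% to 0.144% of reads, were not used. Sums of estimated counts per gene were rounded to whole counts, and CPM were taken after TMM scaling. The test was edgeR 4.0.16 (R 4.3.3), quasi-likelihood with robust dispersion and its default filter, in a single model of group means over 11 libraries. Benjamini-Hochberg adjustment ran over 26960 genes, with a threshold of 0.05. The 7 contrasts were the 4 between groups, the interaction, and each factor averaged over the other. The model was tested on simulated counts. Permutation tests were two-sided with 100000 resamples.

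No pair of libraries held identical values, and chi-square per degree of freedom between replicates was 26.5 to 139, so each was counted once. Depth was 13035346 to 40925952 estimated reads. The clock genes and all lists were chosen with earlier results of these data known. Named genes are the 10 clock genes, called genes of 5 further lists with up to 4 others of smallest p, and the 3 genes most and least like Arntl and Dbp. Alternatives were RLE scaling, DESeq2 1.42.0, limma-voom with quality weights (limma 3.58.1), dropping the filter, requiring 1 CPM in 3 libraries, limma-trend on log2(TPM + 1) or log2(TPM + 0.1), a fit to the compared groups alone, a replicate block, WT treatments by title, covariates for adipocyte, B-cell and muscle markers, and omission of muscle-rich or single libraries.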

Additional observations from a re-analysis of the deposited data

How the results depend on the processing

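The counts of called clock genes changed with the processing as follows, beside 0 for rosiglitazone in WT, 0 for KO against WT on diet, 5 for KO against WT with rosiglitazone, 0 for the interaction, 4 for KO against WT averaged over treatments and 0 for rosiglitazone averaged over genotypes in the fit reported. With limma-voom, rosiglitazone in WT called 5 and genotype with rosiglitazone 7, adding Clock and Dbp, and the fit to the compared groups alone called 6 there, adding Clock. DESeq2 called 1 between genotypes on diet. Taking WT treatments from the titles called 2 on diet, where 2886 against 37 of 26960 genes were called in all, and 1 with rosiglitazone between genotypes, and turned rosiglitazone in WT to 0.64 for Arntl, -0.79 for Per1 and -0.63 for Per3 and the interaction to -0.29 for Arntl and 0.36 for Per3. In log2(TPM + 1) and log2(TPM + 0.1) the genotype contrast averaged over treatments called 2. The adipocyte covariate called 1 for rosiglitazone in WT, and between genotypes 1 on diet, 1 with rosiglitazone and 1 averaged, which was Clock each time, lower with rosiglitazone in WT (-0.52) and higher in KO (0.96, 1.44 and 1.20). It reversed Arntl (-0.16), Per2 (0.41) and Cry2 (0.30) with rosiglitazone, and Arntl (-0.39) and Cry2 (0.44) averaged. The B-cell covariate called 1 between genotypes on diet, 6 averaged, adding Clock (-0.46) and Per2 (-0.44), and 1 for rosiglitazone averaged. The muscle covariate called 2 averaged, and leaving out the 3 muscle-rich libraries called 0 with rosiglitazone and 1 averaged. The cause was not tested in any of these cases.

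Leaving out each library gave 0 to 1 for rosiglitazone in WT, 2 to 6 for genotype with rosiglitazone, 0 to 1 for the interaction and 2 to 6 for genotype averaged. With rosiglitazone the count was 2 without KO replicate 3 or WT replicate 2 and 3 without any other rosiglitazone library. Averaged, it was 2 without any rosiglitazone library or KO on diet replicate 2, and 6 without KO on diet replicate 1. The 6 pairs of Arntl with another clock gene became 3 for deviations from group means, 5 to 6 on leaving out a library, and 0 in log2(TPM + 1), where r was 0.06 for Clock, 0.15 for Per1, 0.18 for Per2, 0.01 for Cry2, 0.28 for Nr1d2 and 0.15 for Dbp. With the replicate number as a block the genotype contrasts called 4 each with rosiglitazone and averaged, Per2 being lost (-0.74 ± 0.21, adjusted p = 0.054), and 3444 against 4037 genes were called in all with rosiglitazone and 1 against 37 on diet. Over all genes the contrast with rosiglitazone called 9182 with limma-voom, 8461 in the fit to the compared groups alone, 2680 with the adipocyte covariate, 624 with WT treatments from the titles and 208 without the muscle-rich libraries, and rosiglitazone in WT called 578, against 1981 with DESeq2 and 7325 with limma-voom. Same-numbered libraries correlated between -0.53 and 0.70, so the numbers were not taken to pair samples. Groups of 2 or 3 libraries limit every call, and Arntl and Cry1 rest on few reads.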
